A study of Mus musculus with 24 samples.

Results

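The sequences examined here are the shortened and lengthened versions of mature microRNAs (miRNAs) whose bases match the precursor: the trimmed templated forms, and the forms extended at the 3′ end by bases that continue the hairpin. Members were the mature miRNAs with at least 1000 counts summed over 21 labelled libraries, where the sum covers 8 classes of isoform. That rule kept 248 of 1221 names and left out 973. The 248 names had 242 entries for the trimmed class and 242 for the extended class, of 892 and 768 in the whole table, and 6 members had no trimmed and 10 no extended count in a labelled library. Just inside the rule lay miR-340-5p with 1008 counts and miR-212-3p with 1010, and just outside it miR-1947-5p with 981 and miR-129b-3p with 977. Members were therefore chosen by abundance in labelled RNA. Their shares and the balance of both forms were not used to choose them.

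A mature miRNA is cut from a hairpin by Drosha and then Dicer, and 1 strand is loaded into an Argonaute protein. Both enzymes can cut at neighbouring positions, and exonucleases can shorten and nucleotidyl transferases can lengthen the 3′ end afterwards, so that a single hairpin gives a set of end variants called isomiRs. The seed, near the 5′ end, guides target pairing, whereas a changed 3′ end leaves the seed as it was. At which end the trimmed forms counted here are shortened is not given in the sources used. A miRNA whose annotated end is not its usual end in a given cell type is counted mostly as a variant.

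The cells were 3T9, an immortalised line of mouse embryo fibroblasts, grown in serum. The pulse was 300 µM 4-thiouridine (4SU) for 3 h, a thiol-bearing analogue of uridine that cells build into new RNA and that biotin can be attached to, and the chase that followed was in 1 mM uridine. Labelled RNA was captured on streptavidin at 0, 2, 4, 6, 8, 10 and 12 h of chase in 3 experiments, which gives 21 labelled libraries with n = 3 at each time. Of each control there was 1 library: uncaptured RNA from cells that received no 4SU (total unlabelled RNA), uncaptured RNA from 4SU-treated cells (total 4SU RNA), and RNA captured from cells without 4SU (the negative extraction). No genotype differed between the groups, and the labels gave the same treatment text for every sample, so the titles and the series design were used to tell the controls apart.

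Labelled libraries held 1133048 to 7886484 counts. Total unlabelled RNA had 6412428, total 4SU RNA had 4525638 and the negative extraction had 283922. The 7 fibroblast and mesenchymal miRNAs listed as markers made up 14.0 to 26.7% of labelled counts, 43.9% of total unlabelled and 38.5% of total 4SU counts. Lists of 6 blood, 6 epithelial and 3 muscle miRNAs summed to at most 0.0734%, 0.115% and 0.0022% of labelled counts, with miR-1a-3p at 0. A code in the file header, which the labels do not explain, was shared by experiment 1 and the negative extraction, differed for experiments 2 and 3, and was another one for both total RNA libraries. Labelling and this code therefore cannot be told apart where labelled and total RNA are compared, and neither can experiment and code. All libraries are bulk RNA, in which fewer cells and less RNA per cell cannot be told apart, and a share shows the balance among forms of 1 miRNA, not its amount.

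Sequences of the members on which the results turn are given first, from the RefSeq miRNA records on GRCm38.p6. Capitals mark the seed (bases 2 to 8) and, at the right, the 3 hairpin bases that follow the 3′ end annotated in RefSeq. A templated extension would add these bases if the deposited classes were set against the same end, which was not checked. Where no trailing capitals stand, those bases were not known or differed between the copies in these records, which may not hold every copy. The first set shares a seed within each family and was chosen because its members differ in the balance of trimmed and extended forms.
miR-25-3p: cAUUGCACuugucucggucugaCAG
miR-92a-3p: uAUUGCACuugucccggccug
miR-92b-3p: uAUUGCACucgucccggccuccGGC
miR-221-3p: aGCUACAUugucugcuggguuucAGG
miR-222-3p: aGCUACAUcuggcuacugggucuCUG
miR-26a-5p: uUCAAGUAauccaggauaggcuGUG
miR-26b-5p: uUCAAGUAauucaggauagguUGU
let-7a-5p: uGAGGUAGuagguuguauaguuUUA
let-7i-5p: uGAGGUAGuaguuugugcuguuGGU
miR-181a-5p: aACAUUCAacgcugucggugaguUUG
miR-181c-5p: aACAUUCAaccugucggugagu
The second set holds members whose forms moved over the chase or that differed between labelled and total RNA, and both arms of miR-21a.
miR-155-5p: uUAAUGCUaauugugauagggguUUU
miR-106b-3p: cCGCACUGuggguacuugcugcUCC
miR-125a-5p: uCCCUGAGacccuuuaaccugugaGGA
miR-125b-5p: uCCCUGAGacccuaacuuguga
miR-125b-1-3p: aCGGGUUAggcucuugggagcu
miR-21a-5p: uAGCUUAUcagacugauguugaCUG
miR-21a-3p: cAACAGCAgucgaugggcugucUGA
miR-22-3p: aAGCUGCCaguugaagaacuguUGC
miR-322-5p: cAGCAGCAauucauguuuuggaGUA

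Several of these lie in other genes by the GENCODE annotation of GRCm38. miR-155-5p (chr16:84714143-84714165, plus strand) is in an exon of Mir155hg, its non-coding host. miR-25-3p (chr5:138165332-138165353, minus strand) overlaps an annotated exon and miR-106b-3p (chr5:138165746-138165767, minus strand) an intron of Mcm7, a replication helicase gene. miR-26b-5p (chr1:74394324-74394344, plus strand) is in an intron of Ctdsp1, a phosphatase gene. miR-221-3p (chrX:19146307-19146329) and miR-222-3p (chrX:19146901-19146923) lie on the minus strand in 1 cluster, outside any other annotated gene. The extension bases of miR-155-5p are all U and those of miR-222-3p start with C. A tail of U added without a template after the RefSeq end of miR-155-5p, let-7a-5p or miR-181a-5p would read as a templated extension. Both kinds of tail cannot be told apart by sequence there.

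Trimmed forms were the larger class for most members, and the balance differed far more between miRNAs than between libraries of 1 miRNA. The median over the 248 members of the trimmed share, the percentage of a miRNA's counts in trimmed templated forms, was 10.3%, and that of the 3′ templated extended share was 3.0%. The trimmed share was over 50% in 34 members and under 1% in 29, and the extended share was over 50% in 36 and under 1% in 91. Of the 182 members with at least 1000 trimmed plus extended counts, 98 had more trimmed than extended counts in each of the 21 labelled libraries, 63 had the reverse in each, and 21 had a mixed order. On the scale of log2 trimmed over extended (0.5 count added to each class), the median of these members was 1.55, with quartiles at -2.65 and 5.50. The SD between members was 4.89, against a median SD of 0.82 between the libraries of 1 member.

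**Figure D1:**
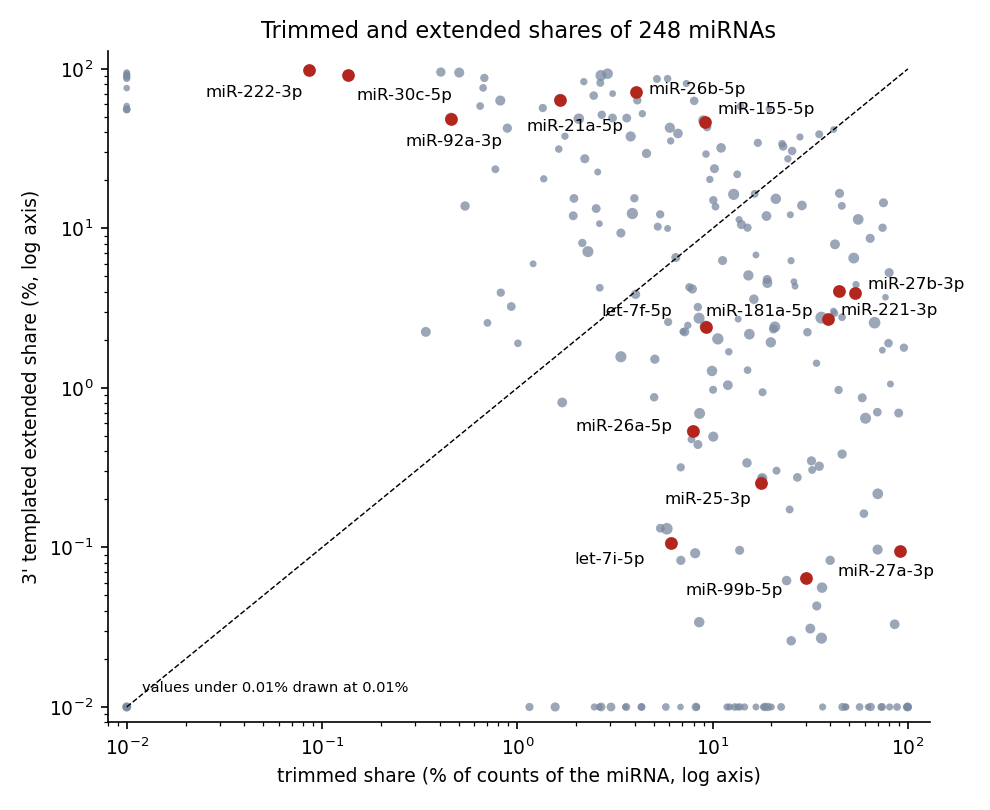
Each point is 1 of the 248 members, with its median trimmed share (x axis, %) and median 3′ templated extended share (y axis, %) over 21 labelled libraries, on log axes. The area of grey points grows with the summed counts, red points are named, values under 0.01% are drawn at 0.01%, and the dashed line marks equal shares. miR-222-3p sits at the upper left with 98.2% extended, and miR-27a-3p at the lower right with 90.9% trimmed.

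At the extended end, miR-222-3p, which acts on the cell cycle inhibitor p27 together with miR-221, was counted almost wholly as the longer form. Its extended share was lowest at 97.0%, had a median of 98.2% and reached 99.04% in the labelled libraries. Among the controls it was 97.9% (total unlabelled), 97.3% (total 4SU) and 98.9% (negative extraction). No library of any kind fell below 97.0%. The trimmed share of miR-222-3p was 0.004 to 0.151% in labelled RNA, and its median log2 ratio of -10.15 was the lowest of the 182 members. The next lowest medians belonged to miR-30c-5p (-9.32), miR-30e-5p (-7.86), miR-143-5p (-7.64) and miR-146b-5p (-7.55). miR-143-5p, the less abundant arm of its hairpin, had no trimmed counts in labelled RNA, so that its value depends on the added 0.5 count.

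At the trimmed end, miR-130a-3p had the highest median log2 ratio, 10.84. Its trimmed share was 80.7 to 93.5% in labelled RNA with a median of 85.6%, but 50.1% in unlabelled and 45.9% in 4SU total RNA, with 88.4% in the negative extraction. Both total RNA values lay below every labelled library. miR-125a-5p (10.44), miR-3074-5p (9.98), miR-27a-3p (9.89) and miR-145a-3p (9.54) followed. Most labelled libraries had no extended count of miR-3074-5p or miR-145a-3p, and those of miR-130a-3p had 0 to 6, so the ratios and the order of these 3 depend on the added 0.5 count. The trimmed share of miR-3074-5p was 95.9 to 100.0%, and that of miR-145a-3p 98.0 to 100.0%, which means that the annotated sequences of both were hardly seen.

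Among the 15 most abundant members, the dominant form varied as widely. let-7f-5p, a member of the let-7 family known for repressing growth genes, had 8442470 labelled counts, a trimmed share of 9.21% and an extended share of 2.42%. miR-143-3p had a median trimmed share of 36.1% and miR-27b-3p 53.9%, whereas miR-92a-3p had 0.457% trimmed and 48.8% extended. The trimmed share of miR-182-5p was 55.0 to 72.5% with a median of 67.5%. miR-21a-5p, an abundant miRNA of fibroblasts and many tumours, was 57.4 to 70.9% extended, with a median of 64.2% and with 64.2% in total unlabelled and 62.2% in total 4SU RNA. miR-99b-5p was the opposite, with 30.1% trimmed and 0.064% extended. miR-22-3p (5.83% trimmed, 0.131% extended) and let-7i-5p (6.10%, 0.106%) carried little of both forms. miR-31-5p (3.88% trimmed, 12.4% extended) and miR-151-3p (12.8%, 16.4%) carried both forms.

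miRNAs with the same seed often differed in which of both forms they carried. In the seed family of miR-25 and miR-92, the median log2 ratio was 5.93 in miR-25-3p, -6.71 in miR-92a-3p and 8.64 in miR-92b-3p. miR-25 and miR-92a are of the miR-106b~25 and miR-17~92 clusters known for promoting proliferation, and miR-92b lies apart on chromosome 3. The annotated sequence of miR-92a-3p is 21 bases long and those of miR-25-3p and miR-92b-3p are 22, as the aligned sequences above show. miR-221-3p had 39.2% trimmed and 2.70% extended forms (3.86), against -10.15 for miR-222-3p. miR-26a-5p was 7.89% trimmed and 0.536% extended (3.98), whereas miR-26b-5p, annotated 1 base shorter, was 4.05% trimmed and 71.3% extended (-4.07). In the miR-181 family, which is known from lymphocyte signalling, the ratio was 3.41 for miR-181a-5p, 2.26 for miR-181b-5p and 1.41 for miR-181d-5p, and -1.08 for miR-181c-5p, again the shortest.

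Some families kept 1 sign of the ratio. The 9 let-7 family members all had positive medians, from 1.38 to 6.24, with trimmed shares of 6.10 to 20.8%. let-7i-5p (5.88) and miR-98-5p (6.24) lay above let-7a-5p (2.33) and let-7f-5p (1.97). The 5 members of the miR-30 family, regulators of differentiation in several tissues, all had negative medians, from -9.32 to -1.77, and a median extended share of 91.4%. In the miR-125 list the median trimmed share was 36.2% and the median extended share 0.136%. The range was wide within these families too, and miR-148a-3p, miR-148b-3p and miR-152-3p, which share 1 seed, had medians of -5.53, -2.68 and 0.05.

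The arms of a hairpin also differed. Both arms of 60 hairpins were members, and 39 of these pairs had at least 1000 trimmed plus extended counts in each arm. In 10 of the 39 the arms had opposite signs of the log2 ratio. miR-21a-5p, the major arm, was 64.2% extended (-5.23), and miR-21a-3p, the arm that is mostly discarded, was 95.4% trimmed (5.63). miR-27b-3p was trimmed (3.87) and miR-27b-5p extended (-4.93), and miR-93-5p was trimmed (2.40) while miR-93-3p was 76.1% extended (-6.61). Over the 60 pairs the less abundant arm was the more trimmed in 30 and the more extended in 25. Over single members, the 117 3p arms had medians of 11.2% trimmed and 2.26% extended, and the 126 5p arms 10.1% and 4.76%.

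The extended share went with the annotated length. A RefSeq sequence was matched for 204 members, and the next hairpin base was known for 174. The 39 members annotated at 21 bases or fewer had medians of 4.32% trimmed and 27.3% extended. The 116 members of 22 bases had 13.3% and 1.54%, and the 49 of 23 bases or more had 18.9% and 2.94%. More extended than trimmed counts were found in 24 of the 39 shortest, 33 of the 116 and 12 of the 49. Total RNA gave the same order of trimmed shares (3.64, 11.5 and 23.6% in total unlabelled RNA), and its extended share was also highest in the shortest class (19.2, 2.06 and 4.32%). These are descriptions over miRNAs that share libraries and an annotation. Whether the deposited classes were set against the RefSeq ends behind these lengths was not checked.

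**Figure D2:**
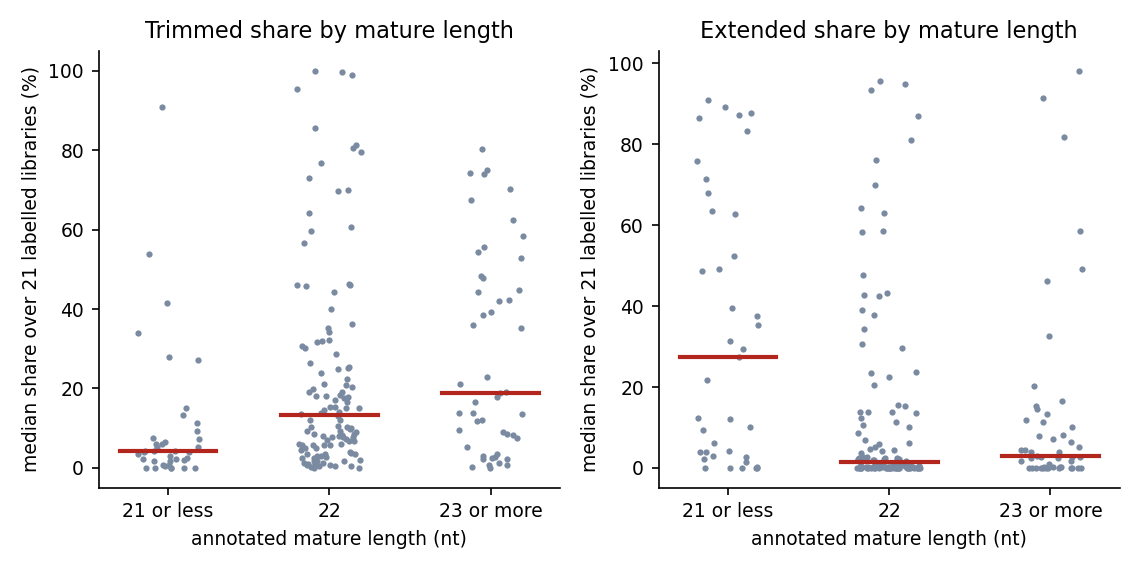
Median trimmed share (left, %) and median 3′ templated extended share (right, %) of each of the 204 members with a RefSeq sequence, over 21 labelled libraries, by annotated mature length in bases. Points are members, spread sideways to show them, and red lines are class medians, which fall from 27.3% extended in the shortest class to 1.54% at 22 bases.

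Within the 22-base members, the hairpin base after the RefSeq 3′ end also went with the extended share. The median extended share was 13.8% where that base was A (14 members), 2.10% for U (34), 0.536% for G (29) and 0.385% for C (23). Total unlabelled RNA had 13.0, 2.34, 0.538 and 0.497% in the same order. In each of these classes an untemplated tail of the same base as the hairpin would be counted as templated, and the part of such tails was not tested.

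Over the chase, the balance over members stayed within a narrow range. The median log2 ratio over members with at least 20 counts of both forms in a library was 1.94 to 2.00 in the 3 labelled libraries at 0 h and 1.71 to 1.85 at 12 h, so the groups did not overlap. It was 1.45 to 2.10 over all 21 labelled libraries, which covers both. Total unlabelled RNA had 1.93, total 4SU RNA 1.56 and the negative extraction 2.27. The number of members behind each median was 142 to 234 in labelled libraries and 102 in the negative extraction. The order of 0 and 12 h turned with the depth and with the count minimum, which both change the members behind a median. With all libraries thinned to 1133048 counts the medians were 1.71, 1.53 and 1.75 at 0 h and 2.01, 1.85 and 2.06 at 12 h in experiments 1, 2 and 3. At the deposited depth, with at least 100 counts of both forms in a library, they were 1.96, 1.91 and 1.94 at 0 h and 2.36, 2.51 and 2.13 at 12 h. No direction over the members is read from these medians.

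**Figure D3:**
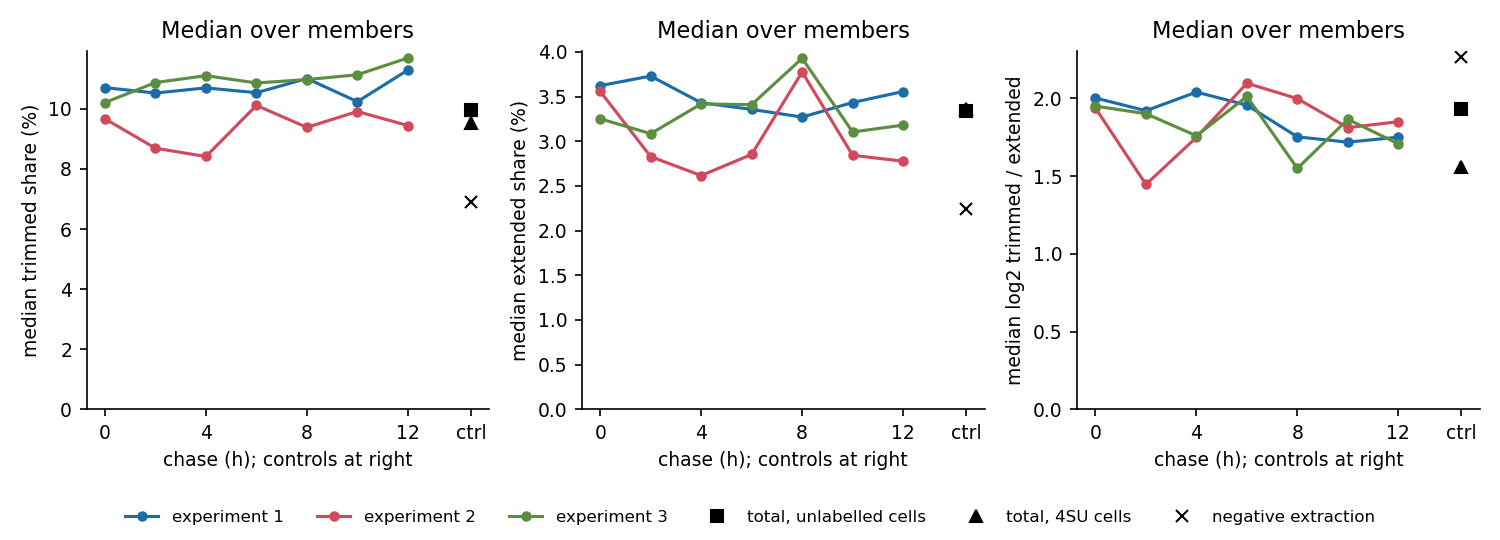
Medians over members of the trimmed share (left, %), the extended share (middle, %) and log2 trimmed over extended (right) in each of the 24 libraries, by hours of chase. Lines join the libraries of 1 experiment, and black symbols at the right are the 3 control libraries, 1 of each kind. The log2 medians of labelled RNA lie between 1.45 and 2.10.

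Single members did move, and the clearest was miR-155-5p, an inducible miRNA of immune and stress responses. Its extended share in experiment 1 was 52.8, 54.5, 46.8, 42.0, 37.6, 34.7 and 30.8% at 0, 2, 4, 6, 8, 10 and 12 h. In experiment 2 it was 62.2, 65.2, 51.1, 46.5, 43.8, 39.3 and 35.1%, and in experiment 3 it was 60.8, 56.7, 53.1, 46.3, 41.8, 41.5 and 38.1%. Every 12 h library lay below every 0 h library, with 58.6% ± 5.05 (SD, n = 3) at 0 h and 34.7% ± 3.67 at 12 h. The log2 odds of the extended form against all other forms fell by 0.13 per hour (SE 0.0138, edgeR quasi-likelihood test, Benjamini-Hochberg adjusted p = 7.73e-08), and by 0.12, 0.15 and 0.12 per hour within experiments 1, 2 and 3. The canonical form rose in share from 24.8% ± 4.22 to 41.7% ± 4.37 (no test was run on it), and the trimmed share was 8.20% ± 1.53 and 9.97% ± 2.53 (slope 0.05 per hour, edgeR adjusted p = 0.348, and 0.0108 with experiment as a block).

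The control libraries of miR-155-5p lay between the means at both ends of the chase, with extended shares of 45.8% (total unlabelled), 35.5% (total 4SU) and 42.4% (negative extraction). The fall passed the edgeR test without any single library, without any experiment, without 0 h or 12 h and under each scaling, with a highest adjusted p of 0.000184.

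Over the members, 205 of 248 had at least 20 extended and 20 other counts and were tested for this slope, and 43 were not. The extended share fell in 2 of them and rose in none (edgeR adjusted p under 0.05), against 0.971% and 0% of all 309 names tested, and 33 had an unadjusted p under 0.05. The other was miR-106b-3p, the less studied arm of a hairpin in Mcm7. Its extended share was 11.6, 14.2 and 10.6% at 0 h and 7.16, 8.73 and 7.88% at 12 h in experiments 1, 2 and 3, without overlap. Its slope was -0.06 per hour (SE 0.0146, edgeR adjusted p = 0.0448), and -0.06, -0.07 and -0.05 within the experiments. That call was lost without 10 of the 21 libraries (experiment 1 at 0, 8 and 12 h, experiment 2 at 0, 2 and 8 h, experiment 3 at 4, 8, 10 and 12 h), with a highest adjusted p of 0.119, and with TMM scaling (0.284). Over all alternatives without the block its adjusted p was 0.00286 to 0.284.

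Libraries of 1 experiment deviated together, so the experiment was also fitted as a block. With it, the extended share fell in 19 and rose in 6 of the 205 members, where 9.06% of all names were called (7.12% fell, 1.94% rose). The falls then included let-7b-5p (-0.03 per hour, SE 0.0074, edgeR adjusted p = 0.00309), miR-27b-3p (-0.04, SE 0.0064, adjusted p = 0.000113), miR-92a-3p (-0.04, SE 0.0072, adjusted p = 0.000257) and miR-181b-5p (-0.04, SE 0.0074, adjusted p = 0.000113). For miR-92a-3p the extended share went from 51.8, 54.4 and 44.8% at 0 h to 42.9, 45.3 and 40.3% at 12 h, and experiment 3 at 0 h lay just under experiment 2 at 12 h. The extended share of miR-25-3p, with the same seed, rose under the block (0.05 per hour, SE 0.0097, edgeR adjusted p = 0.000878), from 0.194, 0.195 and 0.232% to 0.259, 0.415 and 0.308%. Without the block, the edgeR adjusted p was 0.107 for miR-92a-3p and 0.0551 for miR-25-3p.

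**Figure D4:**
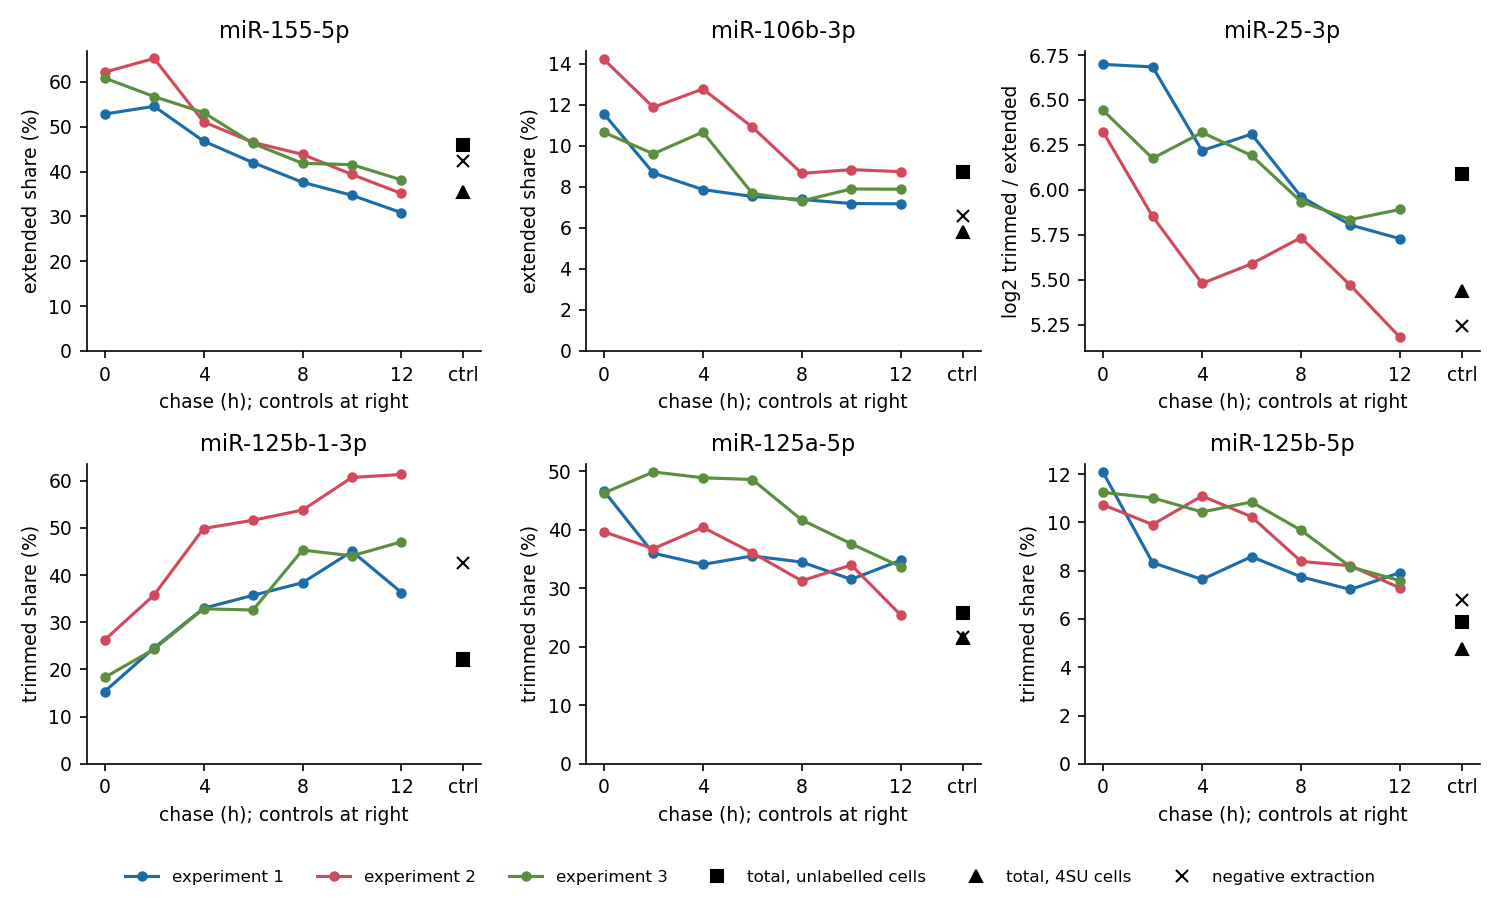
Values in each of the 24 libraries for 6 members with a called slope: 3′ templated extended share (%) of miR-155-5p and miR-106b-3p, log2 trimmed over extended of miR-25-3p, and trimmed share (%) of miR-125b-1-3p, miR-125a-5p and miR-125b-5p, against hours of chase. Coloured lines are the 3 experiments and black symbols at the right the 3 control libraries. The extended share of miR-155-5p starts at 52.8 to 62.2% and ends at 30.8 to 38.1%.

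The trimmed share moved in more members. Of 235 members with at least 20 trimmed and 20 other counts, it rose in 7 and fell in 3 (edgeR adjusted p under 0.05), against 2.8% of all 357 names tested (1.96% rose, 0.84% fell). With the experiment as a block it rose in 36 and fell in 12, against 14% of all names (10.6% rose, 3.36% fell). The split depended on scaling: with TMM the 8 calls were 2 rises and 6 falls, and with median-of-ratios size factors the 10 calls were 5 and 5. TMM with the block gave 8 rises and 49 falls. The share of all names was not computed for the scaled fits. The median slope over the members was 0.0077 per hour without scaling and -0.0261 with TMM.

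miR-125b-1-3p, the minor arm of a miR-125b hairpin, was among the 7 rises. Its trimmed share in experiment 1 was 15.3, 24.6, 33.0, 35.7, 38.4, 45.1 and 36.3% from 0 to 12 h. In experiment 2 it was 26.3, 35.8, 49.9, 51.7, 53.8, 60.7 and 61.3%, and in experiment 3 it was 18.3, 24.3, 32.9, 32.6, 45.3, 44.1 and 47.1%. All 12 h values lay above all 0 h values, with means of 19.97% ± 5.65 and 48.2% ± 12.6 (SD, n = 3). The slope was 0.16 log2 odds per hour (SE 0.0269, edgeR adjusted p = 0.00043), and 0.14, 0.17 and 0.17 within the experiments. The canonical share was 75.9% ± 5.92 at 0 h and 48.0% ± 12.2 at 12 h. Total RNA was at the level of 0 h, with 22.3% unlabelled and 21.995% 4SU, and the negative extraction was at 42.6%. Without the 0 h libraries the adjusted p was 0.0538.

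miR-6539 also rose under every alternative without the block, with a highest adjusted p of 0.0296. Its trimmed share was 86.3, 80.6 and 85.7% at 0 h and 92.1, 93.1 and 93.1% at 12 h (slope 0.12 per hour, SE 0.0183, edgeR adjusted p = 0.000147), with 85.2% in total unlabelled and 87.5% in total 4SU RNA. miR-21a-3p rose from 78.1, 83.4 and 91.4% to 95.4, 97.7 and 98.1% (0.19 per hour, SE 0.0466, edgeR adjusted p = 0.0229). Its canonical share was 9.71% ± 3.44 at 0 h and 0.951% ± 0.894 at 12 h, and its trimmed share was 87.8% in total unlabelled RNA. The call was lost without experiment 1 at 0 h, without experiment 2 at 0 h, without all 0 h libraries (adjusted p = 0.436), without experiment 1 (0.143) or 12 h (0.0654), with limma (0.0593) and with TMM (0.0934).

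miR-29b-1-5p, a minor arm, had only 4 to 11 trimmed counts in each 0 h library and 4 to 7 at 12 h. Its trimmed share was 2.89, 3.01 and 2.04% at 0 h and 25.0, 15.4 and 10.9% at 12 h (slope 0.17 per hour, SE 0.0422, edgeR adjusted p = 0.0247). The slope call was lost without experiment 1 at 0 h or 12 h, experiment 2 at 12 h or experiment 3 at 0 h, and with TMM (0.156), and its adjusted p over all alternatives without the block was 0.0177 to 0.393. The remaining 3 rises, miR-574-5p, miR-149-5p and miR-92a-1-5p, fall outside the rule for naming and were looked up after the calls. Their slopes were 0.07, 0.10 and 0.15 per hour (edgeR adjusted p = 0.0177, 0.0247 and 0.0281). The call of miR-574-5p was lost without experiment 3 at 0 h, and that of miR-149-5p without experiment 1 at 12 h or experiment 3 at 0 or 12 h. That of miR-92a-1-5p was lost without experiment 1 at 0 or 2 h, experiment 2 at 0 h, or experiment 3 at 0 or 12 h, and with DESeq2 (0.0542) and limma (0.163). All 3 calls were also lost with TMM (0.265, 0.358 and 0.156), without experiment 3 and without 12 h. Over all alternatives without the block their adjusted p was 0.00287 to 0.265, 0.000797 to 0.393 and 0.0178 to 0.416.

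All 3 falls of the trimmed share were in abundant 5p arms, and 2 of them, miR-125a-5p and miR-125b-5p, share the miR-125 seed. The trimmed share of miR-125b-5p, a miRNA of differentiation and p53 control, was 12.1, 10.7 and 11.2% at 0 h and 7.92, 7.28 and 7.58% at 12 h, without overlap. Its slope was -0.05 per hour (SE 0.0108, edgeR adjusted p = 0.0122), and -0.04, -0.05 and -0.05 within the experiments. It passed without any single library and was lost without experiment 3 (0.0967), without 0 h (0.211) and without 12 h (0.11). miR-125a-5p fell from 46.6, 39.7 and 46.3% to 34.8, 25.5 and 33.7% (-0.06 per hour, SE 0.0164, edgeR adjusted p = 0.028), and its canonical share was 51.5% ± 3.20 at 0 h and 62.2% ± 3.09 at 12 h. Its call was lost without experiment 1 at 0 or 10 h, experiment 2 at 12 h, or experiment 3 at 0 or 2 h, with an adjusted p of 0.00155 to 0.315 over all alternatives without the block. miR-191-5p fell from 2.69, 2.36 and 2.61% to 1.39, 1.49 and 2.19% (-0.06 per hour, SE 0.0139, edgeR adjusted p = 0.0247), and was lost without experiment 1 at 10 or 12 h, experiment 2 at 12 h, or all 12 h libraries (0.376). That call was also lost without the whole of experiment 1 (edgeR adjusted p = 0.231) or of experiment 2 (0.0526).

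In total RNA, the trimmed shares of these 3 miRNAs lay within or below the range at 12 h. miR-125b-5p had 5.86% in total unlabelled and 4.74% in total 4SU RNA, both under all 21 labelled libraries. For miR-125a-5p the values were 25.7 and 21.5%, against 25.5 to 49.9% in labelled RNA. For miR-191-5p they were 1.76 and 1.42%. The negative extraction had 6.77, 21.7 and 0.822%, so for these miRNAs it lay nearer to total RNA than to labelled RNA at 0 h.

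The ratio of both forms, the measure that ignores the canonical sequence, rose in 1 and fell in 1 of the 197 members with at least 20 counts of each form, against 0.803% of all 249 names tested (0.402% in each direction). At an unadjusted p under 0.05 there were 34. It rose for miR-155-5p, from -2.52, -3.26 and -2.76 at 0 h to -1.33, -2.26 and -1.87 at 12 h (slope 0.11 per hour, SE 0.0269, edgeR adjusted p = 0.0492, and 1.08e-05 with the block). It fell for miR-25-3p, from 6.70, 6.32 and 6.44 to 5.73, 5.18 and 5.89 (slope -0.07, SE 0.0171, edgeR adjusted p = 0.0492, and 2.92e-05 with the block). Both had the same sign in each experiment, 0.12, 0.14 and 0.08 for miR-155-5p and -0.09, -0.07 and -0.05 for miR-25-3p.

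Both ratio calls lay at the threshold in the fit without the block, from which the losses below come. With the block, both calls were kept also without 0 h and without 12 h. That of miR-155-5p was lost without 11 single libraries (experiment 1 at 2, 6, 10 and 12 h, experiment 2 at 0, 8 and 10 h, experiment 3 at 0, 6, 8 and 12 h), with a highest adjusted p of 0.116. That of miR-25-3p was lost without 14 (experiment 1 at 0, 2, 6, 10 and 12 h, experiment 2 at 0, 8, 10 and 12 h, experiment 3 at 0, 4, 6, 8 and 12 h) and with TMM (0.636). Over all alternatives without the block the adjusted p was 0.000935 to 0.299 for miR-155-5p and 0.00342 to 0.636 for miR-25-3p.

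With the block, the ratio rose in 13 and fell in 8 of the 197 members, against 9.24% of all names (6.02% rose, 3.21% fell). TMM with the block gave 29 rises and 3 falls, for which the share of all names was not computed. The 13 included the abundant miR-143-3p (0.04 per hour, SE 0.0093, edgeR adjusted p = 0.0067), miR-27b-3p (0.05, SE 0.009, adjusted p = 0.000139), miR-92a-3p (0.03, SE 0.008, adjusted p = 0.00678) and let-7b-5p (0.05, SE 0.0088, adjusted p = 0.00041). Among the 8 falls was miR-21a-5p (-0.04, SE 0.0104, edgeR adjusted p = 0.0178). Without the block the edgeR adjusted p of these 5 was 0.547, 0.181, 0.251, 0.0621 and 0.728.

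With time as a factor, the ratio at 12 h differed from 0 h in 1 of the 197 members, miR-29b-1-5p, against 0.402% of names tested. With the block it differed in 15 (11 higher, 4 lower), against 6.02% of names (4.42% higher, 1.61% lower). Its log2 ratio was -4.92, -4.71 and -5.46 at 0 h and -1.45, -2.26 and -2.88 at 12 h, a fitted difference of 2.88 (SE 0.544, edgeR adjusted p = 0.00705) that rests on the few trimmed counts given above. The call was lost without experiment 1 at 12 h or experiment 3 at 0 h, and without any whole experiment, with a highest adjusted p of 0.646. TMM moved the median difference over members from 0.18 to 0.80, and TMM with the block called 50 higher and 1 lower (share of all names not computed).

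By family, calls without the block were few. None of the 9 let-7, 5 miR-30, 4 miR-181, 4 miR-10/99/100 or 2 miR-26 members passed the edgeR test for any of the 3 slopes. A slope that was not called does not show that a form stayed the same. In the list of the miR-17~92 and miR-106b~25 clusters, 1 of 13 tested members fell in ratio and 1 of 13 in extended share, and 1 of 14 rose in trimmed share, miR-92a-1-5p, where 0.402, 0.971 and 1.96% of all names tested did so. In the miR-125 list, 1 of 6 rose and 2 of 6 fell in trimmed share, where 1.96% of all names rose and 0.84% fell. None of the tested members of the list of miRNAs reported to undergo target-directed degradation was called without the block (5 for the ratio and the extended share, 6 for the trimmed share), where 0.803, 0.971 and 2.8% of all names were called, and the median ratio slope of these 5 was 0.03 per hour against 0.01 over all names tested.

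With the block, where 10.6% of all names rose and 3.36% fell in trimmed share, family members were called in both directions. The trimmed share rose in 3 of the 4 miR-181 members, miR-181a-5p, miR-181b-5p and miR-181d-5p (slopes of 0.02, 0.02 and 0.03 per hour, edgeR adjusted p = 0.0228, 0.0232 and 0.0174). It rose in 2 of the 4 tested arms of the miR-221 and miR-222 hairpins, miR-221-3p and miR-221-5p, and in 2 of 8 of the miR-23/24/27 list. It fell in 2 of 4 of the miR-15/16 list, miR-15b-5p and miR-16-5p, and in 1 of 9 let-7 members, miR-98-5p. In the miR-17~92 and miR-106b~25 list 3 of 14 rose and 1 fell, and in the target-directed degradation list 1 of 6 rose, miR-335-3p. The extended share, which rose in 1.94% and fell in 7.12% of all names, rose in 1 of the 5 tested members of that last list, miR-30b-5p, and fell in 1, miR-7a-5p. It fell in 1 of 9 let-7 members, let-7b-5p, whose ratio rose.

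Labelled RNA at 0 h and total RNA were compared by value only, since each total was 1 library. Of 202 members with enough counts, both total RNA libraries had a lower log2 ratio than all 3 labelled 0 h libraries in 39, against 19% of 210 names, and a higher one in 42, against 20%. The median absolute difference between the 0 h mean and the mean of the totals was 0.73. The totals differed from each other by a median of 0.43, and the 3 labelled 0 h libraries spanned a median of 1.05. In 17 of the 39 and 13 of the 42, both totals also lay outside all 21 labelled libraries, which was not counted over all names. The 202 members are among the 210 names, so these counts do not set the members apart from all names.

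miR-22-3p was more trimmed in labelled RNA. Its trimmed share was 5.07, 5.29 and 5.83% at 0 h and 4.17 to 7.98% over all labelled libraries, against 1.47% (unlabelled) and 1.41% (4SU) in total RNA and 3.26% in the negative extraction. No labelled library came down to the total RNA level. Its extended share was 0.143% ± 0.014 (SD, n = 3) at 0 h, 0.138% and 0.139% in the totals.

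miR-181a-5p differed in both forms. The trimmed share was 40.7, 37.5 and 51.3% at 0 h, against 28.7% in total unlabelled and 26.01% in total 4SU RNA. The extended share was 3.96% ± 1.18 at 0 h, 8.86% and 12.7% in the totals. Its log2 ratio was 2.88 to 4.22 at 0 h, 1.70 and 1.03 in the totals and 2.59 in the negative extraction. miR-181c-5p (0 h mean -1.17, totals -3.11 and -3.28) and miR-181d-5p (1.37, totals 0.31 and 0.03) lay on the same side. So did miR-143-3p (3.52, totals 2.10 and 2.29), miR-16-5p (1.45, totals 0.17 and 0.40), miR-501-3p (2.28, totals -0.71 and -1.53) and miR-99a-5p (5.04, totals 1.44 and 0.68), where the first total is unlabelled RNA and the second 4SU RNA.

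On the other side, miR-322-5p, of the miR-15/16 seed family, was less trimmed in labelled RNA. Its trimmed share was 1.56, 1.85 and 2.58% at 0 h and 0.932 to 2.58% over all labelled libraries, against 3.97% in total unlabelled and 4.32% in total 4SU RNA, with 1.29% in the negative extraction. The log2 ratio was 0.87 to 1.44 at 0 h, 3.58 and 3.27 in the totals and 0.95 in the negative extraction. miR-192-5p (0 h mean -3.23, totals -1.12 and -0.28), miR-532-5p (1.99, totals 3.27 and 3.59) and miR-671-3p (-4.04, totals -2.66 and -2.68) lay on the same side, outside all 21 labelled libraries. miR-30b-5p (-2.80, totals -0.80 and -0.76) and miR-140-5p (1.01, totals 3.21 and 3.10) were higher in the totals than at 0 h but not than every labelled library. The names in this comparison were picked after their values were seen, except those also named by abundance.

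**Figure D5:**
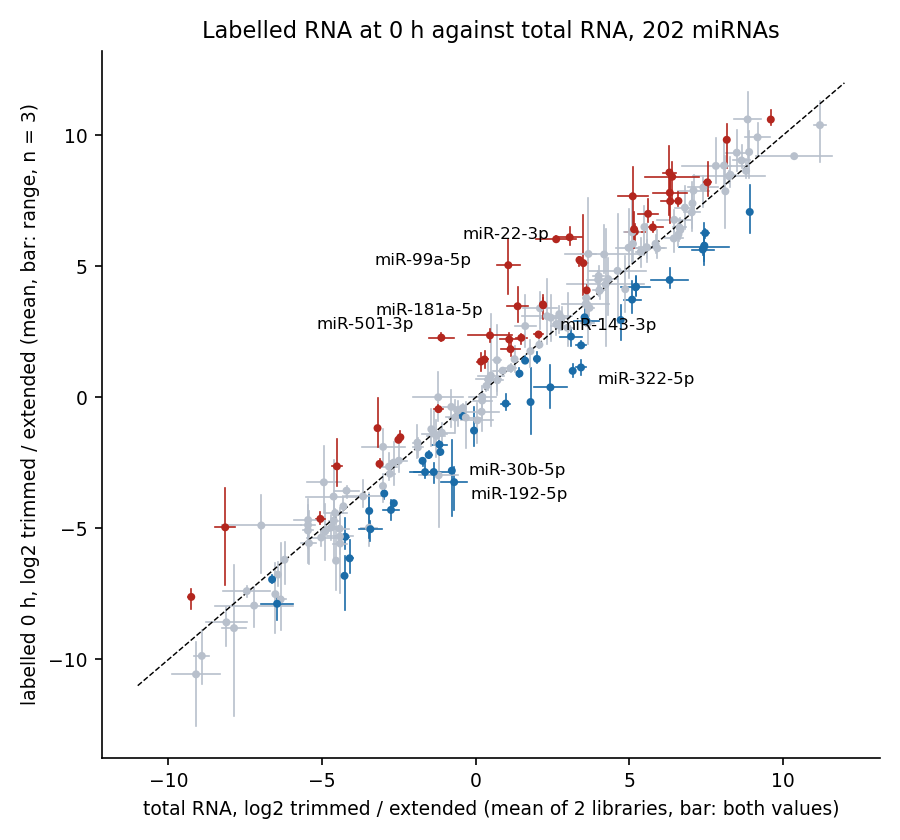
Log2 trimmed over extended at 0 h of chase (y axis, mean of 3 labelled libraries, vertical bar the range) against total RNA (x axis, mean of 2 libraries, horizontal bar both values) for 202 members. The dashed line marks equality. Both totals lie below all 3 labelled libraries in the 39 red members and above them in the 42 blue members.

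The negative extraction, which holds RNA captured without 4SU, did not lie on 1 side of these differences. Among the 39 members with lower totals it was nearer to the labelled value in 11 and nearer to total RNA in 10, and in 18 it had too few counts. Among the 42 with higher totals it was nearer to labelled RNA in 8 and to total RNA in 8, with 26 too shallow. The part of RNA captured without 4SU in the differences was not tested.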

How the data were processed

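Small RNA of 3T9 fibroblasts was sequenced in 24 libraries. The authors deposited 1 table of read counts, whole numbers per isoform class of each mature miRNA and library, per the file headers; 1 duplicate of its 7129 entries was removed. Base calls came from CASAVA 1.8.0 per the submitters' processing notes. How reads were aligned and annotated, how the classes were defined (including which end "trimmed" refers to) and how reads matching several names were counted is not given in the sources used here, so forms of near-identical miRNAs may share reads. Totals of non-templated additions equalled the sum by base in 25632 of 25632 cells (exact equality) and entered once.

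Shares were computed per miRNA and library over 8 classes. Slopes used edgeR 4.0.16 quasi-likelihood tests (R 4.3.3) on paired counts: both classes of a library side by side, with library, class and class by hours as terms, no scaling between columns, at least 20 counts of each class, and Benjamini-Hochberg adjustment over every name tested, called under 0.05. A slope of a share is in log2 odds per hour. SEs were derived from the F statistic. The replicates are experiments that the series design calls independent. The scripts were tested on simulated counts of 249 names, of which 100 had a true slope. Simulated libraries of 1 experiment did not deviate together, unlike the deposited ones, so the rates may not carry over to these data. There the ratio fit without the block called 8% of true slopes of 0.05 per hour and 40% of the larger ones. It made 1 false call. A missing call therefore does not show that a form stayed the same. Limma 3.58.1 and DESeq2 1.42.0 were alternatives, with TMM or median-of-ratios scaling, other count minimums (1 and 200), pseudocounts of 1 and 5, thinning, and leaving out libraries, experiments or times. Under either scaling, each class column of a library had its own factor. Slopes there are relative to that scale, not to the unscaled counts. Added after seeing the data were TMM with the block, and leaving out 0 h or 12 h with the block.

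The experiment number in the titles pairs libraries across times. Deviations of the log2 ratio from the time-point means, over 135 members, correlated at 0.047 to 0.586 (median 0.349) in the 63 pairs within an experiment and at -0.589 to 0.28 (median -0.184) in the 126 pairs between experiments, and 21 of 21 libraries correlated best with their own. The unexplained header code splits the libraries the same way.

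Named members were the 15 most abundant, the 5 highest and 5 lowest median ratios, up to 8 called ratio slopes and 4 called share slopes in each direction with the same sign in all 3 experiments (slopes and median ratios only among members with at least 1000 trimmed plus extended counts), up to 3 most abundant members of each list, arm pairs and members with the same seed. Members and lists were chosen with earlier results of these data known. The miR-15/16, miR-29, miR-34/449, miR-221/222, miR-23/24/27, miR-199/214 and miR-143/145 lists had no called slope without the block. Counting error alone limits shares of shallow libraries, and PCR duplicates cannot be removed.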

Additional observations from a re-analysis of the deposited data

How the results depend on the processing

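The number of members with a called ratio slope, 2 in edgeR, was 21 with experiment as a replicate block, 4 with DESeq2, 7 with limma, 1 with TMM, 0 with a minimum of 1 count (42 at an unadjusted p under 0.05), 5 with a minimum of 200, 1 after thinning and 32 with TMM and the block. It was 0 without 0 h (28 at an unadjusted p under 0.05) and 0 without 12 h (18), but 21 and 16 there with the block, and 0 to 13 when libraries or experiments were left out. The 10 called trimmed-share slopes became 48 with the block and 57 with TMM and the block, 4 without 0 h and 3 without 12 h (29 and 27 with the block), and 4 to 15 when libraries or experiments were left out. The 2 called extended-share slopes became 25 with the block, 1 with limma, 1 with TMM, 5 with DESeq2 and median-of-ratios size factors, 1 with a minimum of 1 count, 7 with a minimum of 200, 1 after thinning, and 1 without 0 h or without 12 h (25 and 19 with the block), with 1 to 11 when libraries or experiments were left out. The single call for 12 h against 0 h became 15 with the block, 51 with TMM and the block, 0 with a minimum of 200 counts and 0 after thinning (11 at an unadjusted p under 0.05 in both), and 0 to 1 when libraries or experiments were left out. The cause of these shifts was not tested. The share of all names called was computed for the edgeR fit named first and for that with the block, not for the other settings. The median of the library medians was 1.87, and 1.60 with a pseudocount of 5 and 2.11 with a minimum of 100 counts per library. Among the named members, no called slope changed sign under an alternative. The block, which follows the pairing by experiment, ended no call listed without it. The number of members in which both totals lay outside the 0 h range was 81, and 83 with a pseudocount of 5. Depth limits the negative extraction, in which many members had too few counts, and minor arms such as miR-29b-1-5p.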
